A study of Mus musculus with 8 samples.

Results

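The enzymes that make, recycle and divert nicotinamide adenine dinucleotide (NAD) were examined in RNA sequencing counts of mouse hearts (Mus musculus) at embryonic stage E18.5. The set holds 9 genes of 49315 in the count files: Nmrk1, Nmrk2, Nampt, Nmnat1, Nmnat3, Naprt, Nadsyn1, Nnmt and Nadk. Each was found by the symbol of its Ensembl identifier, and all 9 passed the filter on low counts, as did 16372 genes in all. There were 4 mutant hearts with the genotype CHD4 M195I/M195I and 4 wild-type (WT) hearts of the same stage. CHD4 is a chromatin-remodelling ATPase, and the labels name no transgene, Cre driver or treatment. They give each library its own number within a genotype but no litter, parent or strain, so p-values measure the spread between these samples. The set was chosen by the measured counts of these libraries, because Nmrk2 was among the largest falls in the mutants, so the difference of Nmrk2 is given as a description without a test. The other 8 genes joined it for their place in the pathway.

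NAD carries electrons between metabolic reactions and is also cut up by sirtuins, poly(ADP-ribose) polymerases and CD38, which release nicotinamide. Cells rebuild it by several routes. Nampt turns nicotinamide into nicotinamide mononucleotide, and the kinases Nmrk1 and Nmrk2 make the same product from nicotinamide riboside. Naprt starts the Preiss-Handler route from nicotinic acid, and Nadsyn1 ends it. Nmnat1 in the nucleus and Nmnat3, described in mitochondria, add the adenylyl group that the routes share. Nnmt methylates nicotinamide and so removes it from salvage, and Nadk phosphorylates NAD to NADP. Nmrk2 is known as the striated muscle form of the riboside kinase and was first described as a muscle protein that binds an integrin.

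Total counts ranged from 18673488 to 21341235 per mutant library and from 18375951 to 20815388 per WT library. Chd4 lay between 473.9 and 493.9 CPM (counts scaled to a common library size) in the mutants and between 444.7 and 460.3 CPM in WT, and gene-level counts cannot verify the mutation itself. Xist was scarce in both genotypes, at 1.53 to 1.92 CPM in mutants and 1.28 to 1.58 CPM in WT. The column headers of the single libraries begin with "Male" in both genotypes. Scgb3a2, an airway secretoglobin, was at 175.9 to 498.2 CPM in 5 libraries of both genotypes and at 0.328 to 6.48 CPM in the other 3, so some results are also given within these groups. The group of 3 has 1 WT library, which is assumed to vary like the others, so a call missed there says little. Cardiomyocyte markers were abundant in every library. The 10 genes of that list summed to 30980.2 to 36549.6 CPM in mutants and 34089.6 to 37154.9 CPM in WT. These sums and the Scgb3a2 values are scaled by library totals alone. No member lies on chromosome 6, where Chd4 is.

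The 300 bases around the annotated start of the kinase that fell, of its paralogue and of the other member that fell are shown because these enzymes make the same product. They run from 250 bases before the start, are RefSeq sequences on build GRCm38.p6, and were found for 7 of the 9 members. Capitals mark matches on either strand to 6 motifs. The hypoxia response core was searched as ACGTG. The E-box, which can overlap it, was searched as CANNTG. The AP-1 site was searched as TGANTCA. The muscle MCAT element was searched as CATTCC. The GATA factor site was searched as TGATAA. The TATA box was searched as TATAAA. The first lies at chr10:81201988-81202287 on the minus strand, the second at chr19:18631766-18632065 on the plus strand and the third at chr12:32820085-32820384 on the plus strand.
Nmrk2: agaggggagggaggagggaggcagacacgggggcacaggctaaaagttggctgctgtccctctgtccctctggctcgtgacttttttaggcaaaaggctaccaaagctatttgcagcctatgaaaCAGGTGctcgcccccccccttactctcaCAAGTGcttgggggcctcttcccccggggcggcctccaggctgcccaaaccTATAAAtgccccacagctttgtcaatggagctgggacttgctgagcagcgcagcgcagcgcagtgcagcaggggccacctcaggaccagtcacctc
Nmrk1: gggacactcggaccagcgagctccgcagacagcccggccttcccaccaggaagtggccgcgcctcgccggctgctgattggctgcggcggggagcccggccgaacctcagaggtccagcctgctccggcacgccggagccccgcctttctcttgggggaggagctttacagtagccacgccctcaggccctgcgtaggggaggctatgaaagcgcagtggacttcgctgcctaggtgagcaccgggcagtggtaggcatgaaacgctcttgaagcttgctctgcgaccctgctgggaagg
Nampt: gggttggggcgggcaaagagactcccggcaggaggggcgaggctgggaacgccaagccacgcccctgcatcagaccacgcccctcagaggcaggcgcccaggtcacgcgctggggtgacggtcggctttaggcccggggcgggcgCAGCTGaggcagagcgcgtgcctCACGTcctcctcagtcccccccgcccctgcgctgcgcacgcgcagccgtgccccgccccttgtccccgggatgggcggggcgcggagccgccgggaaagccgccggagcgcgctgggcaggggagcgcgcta

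The Nmrk2 window held TATAAA, whose match begins at position -46 counted from the annotated first base as 1, and E-box letters at -125 and -97. None of the windows of the other 6 members with a sequence held TATAAA, which 13.6% of all 32851 windows in the table hold. E-box letters were in the windows of 5 of the 7 members and in 72.3% of all windows, and ACGTG was in those of Nampt and Nadk and in 19.6% of all. The Nampt ACGTG match lies at -82 on the opposite strand. The 300 bases of Nmrk1 held none of the 6 motifs. The letters of AP-1, MCAT and GATA occurred in no member's window, against 7.81%, 14.7% and 9.05% of all windows. Guanine and cytosine made up 60.7% of the Nmrk2 window, 67.3% of that of Nmrk1 and 76.3% of that of Nampt, where the median of all windows was 52.7%. These matches describe the letters of the windows and no binding was measured.

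Among the riboside kinases, Nmrk2 was much lower in the mutant hearts and Nmrk1 was not called. Nmrk2 (ENSMUSG00000004939, chromosome 10, 81198170 to 81202037, minus strand, GRCm38) had 18.96, 19.49, 19.13 and 18.28 CPM in mutant replicates 1 to 4, against 50.05, 66.18, 46.89 and 49.6 CPM in WT replicates 1 to 4. CPM here are scaled by TMM, a correction for library composition. The genotypes stood far apart, the mutant libraries were close to each other, and WT replicate 2 was above the rest of its group. Means were 18.97 ± 0.510 CPM in mutants and 53.18 ± 8.78 CPM in WT (SD, n = 4 each), a ratio of 0.357. The coefficient of variation was 2.69% in mutants and 16.5% in WT. With 359 to 419 counts per mutant library, the mutant value is below the spread that counting alone would give. Nothing is therefore read from that closeness. On the log2 scale the difference was -1.49 ± 0.11 (mutant minus WT, with its standard error), with a 95% interval from -1.73 to -1.25, and 8 of the 16372 tested genes had a lower value. Without WT replicate 2 it was -1.36. Within the 5 libraries with high Scgb3a2 it was -1.39, and within the other 3 libraries, of which WT replicate 2 is the only WT one, it was -1.78.

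The exons of Nmrk2 share 270 bases, or 14.7% of their length, with Atcayos, a gene on the opposite strand. Whether reads were counted by strand is not stated, so reads in the shared stretch cannot be told apart. Atcayos had 56.56 ± 7.44 CPM in mutants and 69.88 ± 5.04 CPM in WT, which was not called (log2 fold change -0.31 ± 0.09, edgeR adjusted p = 0.0595). It is the only gene whose exons overlap those of a member. Atcay, the neighbour on the strand of Nmrk2, whose exons do not overlap it, fell to 7.68 ± 1.69 CPM in mutants, against 11.65 ± 1.24 CPM in WT (-0.60 ± 0.14, edgeR adjusted p = 0.0102), with every mutant library below every WT library.

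Nmrk1 (ENSMUSG00000037847, chromosome 19, 18631950 to 18652194, plus strand), the kinase found in many tissues, had 4.754, 4.326, 5.157 and 5.373 CPM in the 4 mutant libraries and 5.114, 4.495, 4.154 and 4.833 CPM in the 4 WT libraries. Its genotypes overlapped. The log2 fold change was 0.08 ± 0.13 (edgeR adjusted p = 0.77), and the 95% interval from -0.19 to 0.34 spans ratios between 0.876 and 1.27. Each library held 84 to 112 counts of it, so the precision is limited. Per kilobase of exon, Nmrk2 made up 87.54 ± 1.28% of the sum of both kinases in mutants and 95.34 ± 0.761% in WT (SD, n = 4 each). The level of Nmrk2 per kilobase was 7.09 ± 0.852 times that of Nmrk1 in mutants and 20.93 ± 4.05 times in WT, so Nmrk2 was the more abundant kinase transcript in every library of both genotypes.

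**Figure D1:**
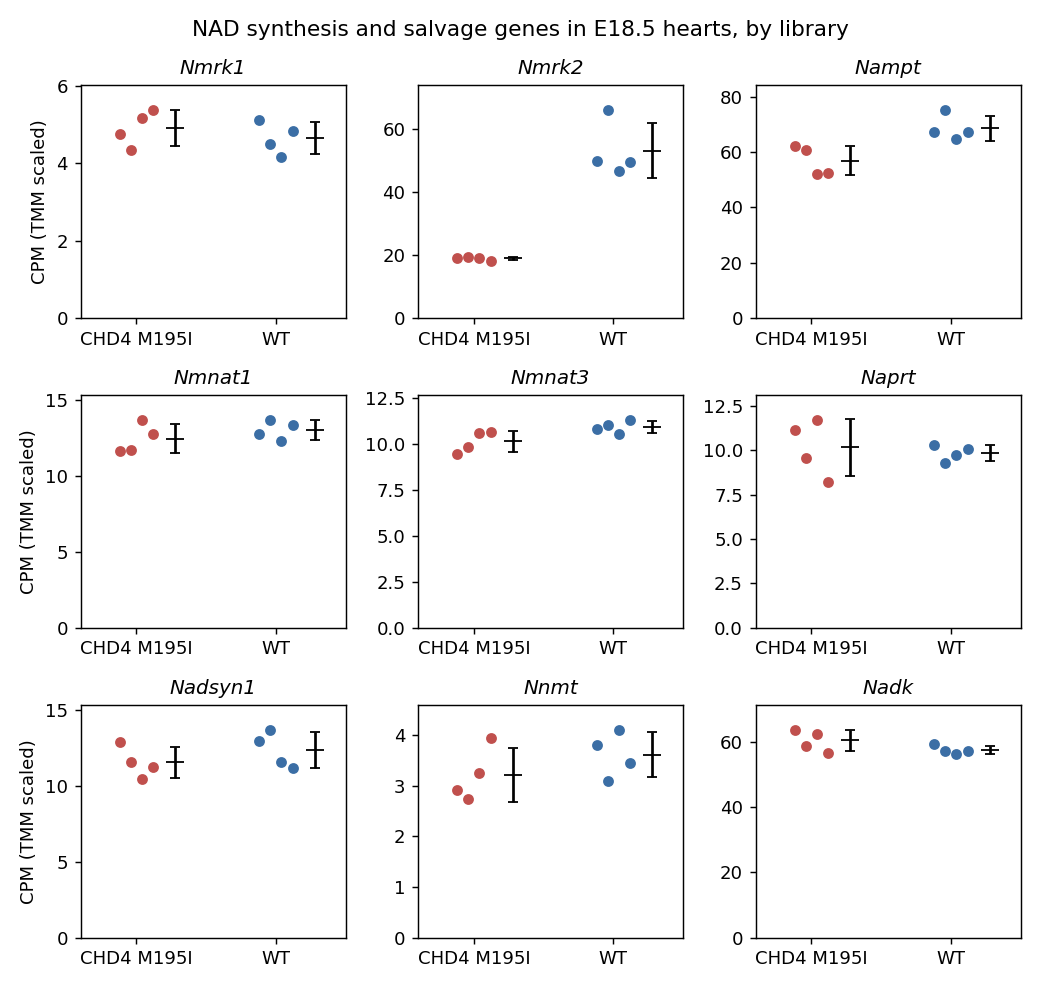
Levels of the 9 genes in CPM scaled by TMM (vertical axes from 0), with 1 point per library, the 4 CHD4 M195I libraries on the left and the 4 WT libraries on the right; the black mark and bar give mean ± SD. The Nmrk2 points lie between 18.28 and 19.49 CPM in mutants and between 46.89 and 66.18 CPM in WT, and Nampt is the other gene whose genotypes do not overlap.

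Nampt, the rate-limiting enzyme of nicotinamide salvage, fell slightly in the mutants. It lies on chromosome 12 (ENSMUSG00000020572, 32820335 to 32853369, plus strand) and had 62.06, 60.62, 52.14 and 52.53 CPM in mutants, against 67.4, 75.27, 64.74 and 67.1 CPM in WT. The highest mutant library was below the lowest WT library. Means were 56.84 ± 5.24 CPM in mutants and 68.63 ± 4.58 CPM in WT (SD, n = 4 each). The log2 fold change was -0.27 ± 0.07 (edgeR's quasi-likelihood test with Benjamini-Hochberg adjustment over 16372 genes, adjusted p = 0.0153), with a 95% interval from -0.41 to -0.13. Without mutant replicate 3 the call was lost (-0.22, adjusted p = 0.0578). With Xist as a covariate it was lost too (-0.13 ± 0.10, adjusted p = 0.604). Xist averaged 1.695 CPM in mutants and 1.372 CPM in WT, so this covariate shares part of the genotype contrast. That fit therefore cannot decide whether the Nampt difference holds. The Nampt difference was -0.35 within the 5 libraries with high Scgb3a2 and -0.29 within the other 3.

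Of the 8 members other than Nmrk2, Nampt was the 1 called lower, none was called higher and 7 were not called, at an adjusted p under 0.05. Among all tested genes, 7.49% were called lower and 5.75% higher, and 18.6% did not overlap between the genotypes, with every mutant library below every WT library in 9.77% and above in 8.8%. Scaling by library totals in place of TMM called 858 genes lower and 1856 higher, against 1226 lower and 942 higher with TMM. Every mutant library was below every WT library for 2 of the 9 members, Nmrk2 and Nampt. No other member had an unadjusted p under 0.05, and DESeq2 and limma-voom also called 1 lower and 0 higher. The median log2 fold change was -0.10 over the 9 members and -0.08 without Nmrk2, against 0.00 over all tested genes. The comparison that selected Nmrk2 is the same one, and nothing is read from these counts.

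Levels of the Nmnat genes overlapped between genotypes. Nmnat1 (chromosome 4, 149467572 to 149485202) ranged from 11.62 to 13.67 CPM in mutants and from 12.27 to 13.68 CPM in WT, with a log2 fold change of -0.06 ± 0.08 (adjusted p = 0.689). Nmnat3 (chromosome 9, 98287435 to 98420438) ranged from 9.455 to 10.65 CPM in mutants and from 10.53 to 11.33 CPM in WT, with -0.11 ± 0.08 (adjusted p = 0.438). Per kilobase, Nmnat3 was 33.13 ± 0.786% of the sum of these 2 in mutants and 33.8 ± 0.634% in WT (SD, n = 4 each). The 95% interval was -0.23 to 0.11 for Nmnat1 and -0.28 to 0.06 for Nmnat3.

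The Preiss-Handler enzymes were not called either. Naprt, which converts nicotinic acid (chromosome 15, 75890964 to 75894481), had 11.14, 9.537, 11.71 and 8.203 CPM in mutants and 10.28, 9.29, 9.743 and 10.05 CPM in WT. The mutant libraries lay on both sides of all WT libraries, with a coefficient of variation of 15.7% in mutants and 4.36% in WT. Its log2 fold change was 0.04 ± 0.11 (adjusted p = 0.863), with an interval from -0.18 to 0.27, and it was -0.02 without mutant replicate 3 and -0.00 without mutant replicate 1. Nadsyn1, the glutamine-dependent NAD synthetase (chromosome 7, 143795584 to 143822849), ranged from 10.47 to 12.94 CPM in mutants and from 11.22 to 13.73 CPM in WT, with -0.10 ± 0.09 (adjusted p = 0.56).

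Nnmt and Nadk, which act on nicotinamide and on finished NAD, showed no called difference. Nnmt (chromosome 9, 48591877 to 48605153) was scarce, with 55 to 82 counts in mutant libraries and 62 to 83 counts in WT libraries. It stood at 3.21 ± 0.527 CPM in mutants and 3.61 ± 0.438 CPM in WT, a log2 fold change of -0.17 ± 0.16 (adjusted p = 0.561). Its interval from -0.51 to 0.17 is the widest of the set, and reaches a ratio as low as 0.7. Nadk (chromosome 4, 155562378 to 155591001) was measured most closely, at 60.48 ± 3.26 CPM in mutants and 57.53 ± 1.31 CPM in WT, with 0.07 ± 0.05 (adjusted p = 0.362) and an interval from -0.03 to 0.17.

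**Figure D2:**
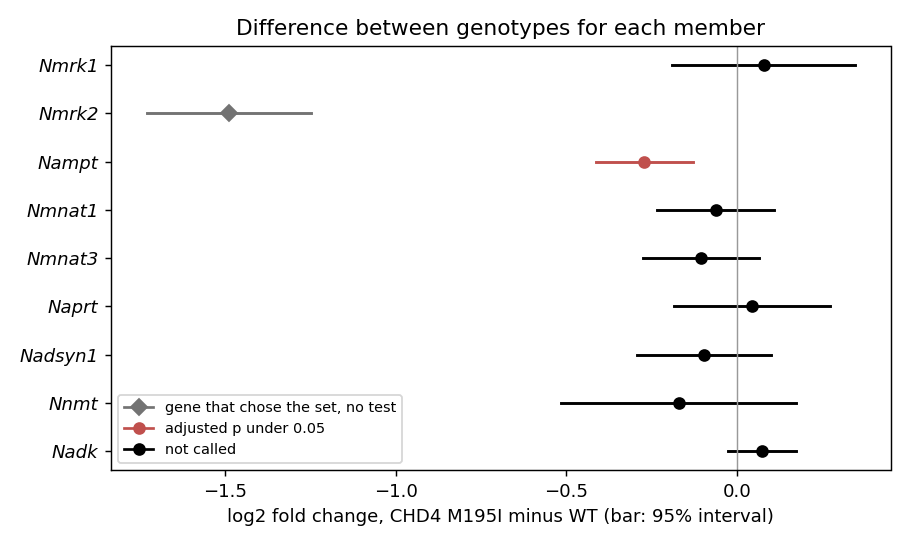
Log2 fold change of each member, CHD4 M195I minus WT, with its 95% interval from the fit over all tested genes; Nmrk2, which led to the choice of the set, is drawn as a grey diamond without a test. Nmrk2 stands at -1.49 and Nampt at -0.27, and the intervals of the other 7 genes cross 0.

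Per kilobase of exon, the order of the members differed at the top between the genotypes. In mutants Nadk stood first at 16.14 ± 0.871 CPM per kilobase, then Nampt at 12.5 ± 1.15 and Nmrk2 at 10.31 ± 0.277, and the ranges of these 3 did not overlap. In WT Nmrk2 stood first at 28.9 ± 4.77 CPM per kilobase, 1.88 times the mean of Nadk, and its lowest library lay above the highest of Nadk. Nadk and Nampt did not differ beyond their spread in WT (15.35 ± 0.350 and 15.09 ± 1.01). Below them both genotypes had the same order, Naprt, Nmnat1, Nadsyn1, Nnmt, Nmnat3 and Nmrk1. Nmnat1 overlapped Nadsyn1 and Nnmt overlapped Nmnat3 in both genotypes, and Naprt overlapped Nmnat1 in mutants. Nmrk2 was at the 70.3 percentile of all tested genes by level per kilobase in mutants and at the 89.5 percentile in WT, while Nmrk1 was at the 27.4 and 26.8 percentiles in mutants and WT. Nampt had 1.21 ± 0.0986 times the level of Nmrk2 per kilobase in mutants and 0.528 ± 0.0455 times in WT.

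**Figure D3:**
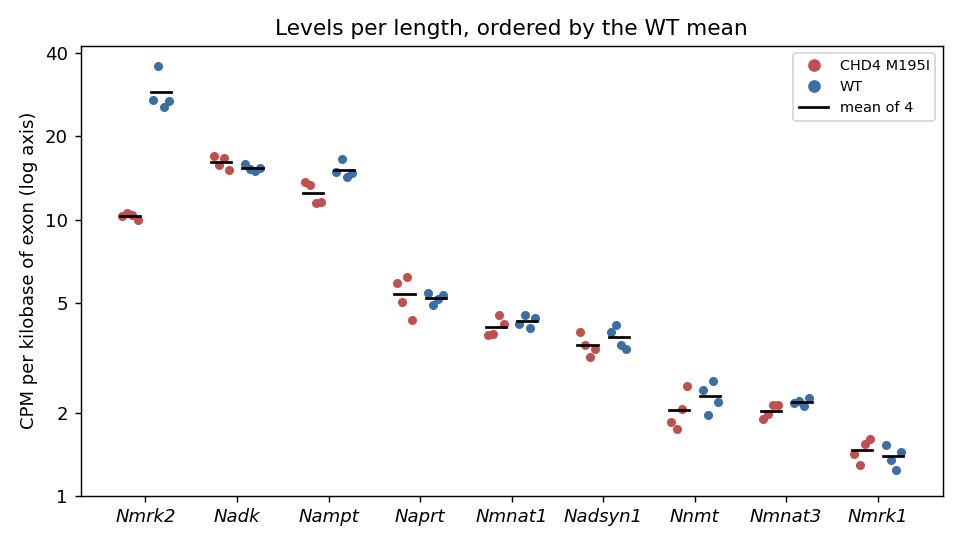
Level of each member in CPM per kilobase of exon (log axis), ordered by the WT mean, with 1 point per library, CHD4 M195I left and WT right at each gene, and lines for the mean of 4. Nmrk2 ranks below Nadk and Nampt in mutants, at 10.31, and leads in WT at 28.9.

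Nmrk2 is a muscle gene, so muscle markers are set beside its fall. Of the 10 cardiomyocyte markers 1, Actn2, fell (-0.28 ± 0.04, adjusted p = 0.000756), and the list median was -0.08. Of 12 skeletal muscle markers, 8 were tested and 4 fell, with a median of -0.29. Of 5 smooth muscle markers 2 fell, with a median of -0.23. Falls were not limited to muscle lists, as 2 of 6 fibroblast markers also fell (median -0.12). Over all marker lists 64 genes were tested, and 11 fell and 3 rose. These are 17.2% and 4.69%, beside 7.49% and 5.75% of all genes. The skeletal muscle list summed to 2041.6 to 2219.9 CPM in mutants and 2365.7 to 2560.0 CPM in WT. Most of it came from Ckm, the muscle creatine kinase that the heart also expresses. Sums of marker lists are scaled by library totals, not by TMM. Casq1, a calcium-binding protein of fast muscle, was at 40.7 ± 4.66 CPM in mutants and 84.21 ± 9.30 CPM in WT (-1.05 ± 0.10, adjusted p = 0.000317). It was the largest fall of that list. The 4 tested genes of the list that were not called ranged from -0.56 (Myh3) to 0.34 (Mylpf). Myod1, which defines the skeletal lineage, had 0 counts in all 8 libraries, and Myog, Pax7 and Tnnc2 stayed under 1 CPM in each. The 6 erythroid markers summed to 1260.0 to 1986.6 CPM in mutants and 2009.5 to 3800.4 CPM in WT, without a call. The part of these shifts in the Nmrk2 difference was not tested. In bulk tissue, fewer cells of a type and less RNA per cell cannot be told apart.

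Genes outside the set whose levels over the 8 libraries ran closest to Nmrk2 were ranked by the root mean square difference of log2 CPM, each centred on its own mean. Among 13290 genes averaging 1 CPM or more, the nearest were Nppb (0.189), Tceal7 (0.217), mt-Ti (0.22), Fgf23 (0.22) and Cavin4 (0.226), and the median gene was at 0.755. Nppb encodes a natriuretic peptide, mt-Ti the mitochondrial isoleucine tRNA, Fgf23 a phosphate-regulating hormone and Cavin4 a caveolar protein of muscle. All 8 libraries share the contrast that chose Nmrk2, so the measure mostly finds falls of like size. In WT replicate 2, where Nmrk2 was highest of its group, Nppb (413.6 CPM against 297.8 to 329.7 CPM in the other WT libraries), Tceal7, mt-Ti and Fgf23 were also highest, and Cavin4 was not. The ranking used this library too, so the shared peak is partly a product of the choice.

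**Figure D4:**
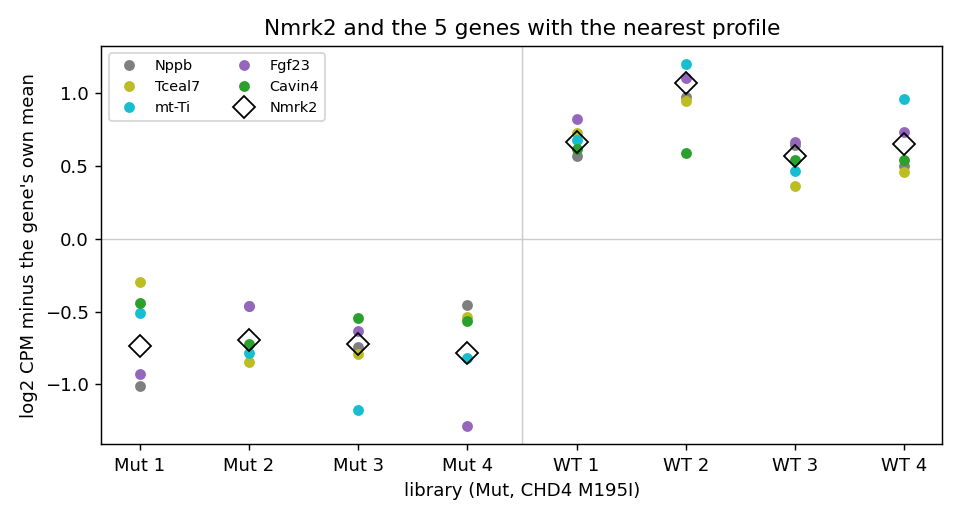
Log2 CPM minus the gene's own mean over the 8 libraries (vertical axis) for Nmrk2 (open diamonds) and the 5 genes with the smallest root mean square difference from it, by library, CHD4 M195I left of WT. All 6 genes lie below 0 in the mutant libraries and above 0 in the WT libraries, and Nmrk2 reaches 1.06 in WT replicate 2.

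Other genes that feed, use or carry NAD were read in 7 lists of 81 genes, of which 70 were tested. Over these lists 3 rose and 11 fell in the mutants, or 4.29% and 15.7% of those tested, beside 5.75% and 7.49% of all genes. With library totals in place of TMM, 6 rose and 6 fell. The median log2 fold change was -0.04. The NADH shuttle list held 6 of the 11 that fell. With Xist as a covariate 0 of these genes were called in either direction, and 141 genes in all were called lower and 109 higher. Mean Xist was higher in mutants, so that covariate shares part of the genotype contrast. Standard errors were larger in that fit for the called genes given with values below. Differences of Qprt, Parp9, Sirt2, Ldha, Got1 and Ppara were smaller there, and those of Nt5e, Mthfd2, Parp1 and Sirt3 were not. Sirt3 was at -0.25 ± 0.09 and Parp1 at 0.20 ± 0.06, against -0.25 and 0.17 without Xist. Ldha was at -0.26 ± 0.08 and Ppara at -0.32 ± 0.11, against -0.36 and -0.42 without Xist. Why the calls were lost was not tested.

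Most genes of synthesis from tryptophan were at very low levels in these hearts. Of its 9 genes, 7 (Tdo2, Ido1, Ido2, Kmo, Kynu, Haao and Acmsd) stayed under 1 CPM in every library. Qprt, the last enzyme of that route before it joins the others, was scarce but rose, with 1.69, 2.373, 2.424 and 2.303 CPM in mutants and 1.142, 1.199, 0.9892 and 1.111 CPM in WT. The genotypes did not overlap (0.98 ± 0.20, adjusted p = 0.00458), and the difference was 0.77 within the 3 libraries with Scgb3a2 under 10 CPM, 1 of them WT (adjusted p = 0.241). Afmid, the other tested gene of the route, was not called. DESeq2 gave no adjusted p for Qprt, so its count of 0 called genes in this list holds no verdict on Qprt. By limma-voom 1 gene of the list was called higher.

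Of 13 genes for other synthesis steps, precursors and transport, 12 had a row under their symbol and 10 were tested. Nt5e, the ectoenzyme CD73 that makes riboside from mononucleotide outside the cell, had 16.43 ± 1.05 CPM in mutants and 19.18 ± 1.17 CPM in WT (-0.22 ± 0.07, adjusted p = 0.0495). That call was lost under 17 of 23 alternatives. None of the list rose by edgeR or limma-voom, 1 did by DESeq2, and 1 had an unadjusted p under 0.05 in that direction.

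Among 24 tested NAD-consuming enzymes, 2 rose and 2 fell, and the median was 0.04. Each count is 8.33% of the list, near the 5.75% higher and 7.49% lower of all tested genes. Parp1, the main DNA damage polymerase, had 160.1 ± 4.08 CPM in mutants and 142.3 ± 1.22 CPM in WT (0.17 ± 0.03, adjusted p = 0.00466). Parp9, a family member induced by interferon, had 24.65 ± 2.61 CPM in mutants and 19.23 ± 1.44 CPM in WT (0.36 ± 0.08, adjusted p = 0.00825), with overlapping libraries. Within the 3 libraries with Scgb3a2 under 10 CPM, 1 of them WT, Parp1 was at 0.20 (adjusted p = 0.0937) and Parp9 at 0.24 (adjusted p = 0.285). Sirt3, the mitochondrial deacetylase, fell to 38.63 ± 1.37 CPM in mutants, against 45.8 ± 2.04 CPM in WT (-0.25 ± 0.05, adjusted p = 0.00395). The cytosolic deacetylase Sirt2 was at 61.92 ± 1.97 CPM in mutants and 68.98 ± 3.02 CPM in WT (-0.16 ± 0.04, adjusted p = 0.0304), a call lost without any 1 of mutant replicates 2, 3 and 4 and WT replicates 1, 2 and 4, with adjusted p-values from 0.0521 to 0.118. The Sirt2 call was also lost with library totals (-0.10, adjusted p = 0.116), with Xist as a covariate (-0.15, adjusted p = 0.412), and within the 5 libraries with high Scgb3a2 (-0.17, adjusted p = 0.0624) and the other 3 (-0.17, adjusted p = 0.262). Exons of Sirt3 overlap those of Ric8a and Psmd13, those of Parp9 overlap Dtx3l and those of Sirt2 overlap Nfkbib, on opposite strands.

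The shuttles that move the electrons of NADH into mitochondria, listed with lactate dehydrogenase, fell in part. Of 11 genes 6 fell and none rose, by edgeR, DESeq2 and limma-voom alike, and 0 had an unadjusted p under 0.05 in the upward direction. The 6 are 54.55% of the list, beside 7.49% of all tested genes called lower. Their median was -0.17. Ldha, the muscle-type lactate dehydrogenase subunit, had 1411.9, 1515.4, 1322.7 and 1332.7 CPM in mutants and 1732.6, 1881.2, 1744.3 and 1788.2 CPM in WT (-0.36 ± 0.05, adjusted p = 0.000247). The cytosolic aspartate aminotransferase Got1 was at 307.4 ± 19.4 CPM in mutants and 371.9 ± 16.7 CPM in WT (-0.27 ± 0.05, adjusted p = 0.00157). For both, every mutant library was below every WT library. Both calls held with library totals in place of TMM. With Xist as a covariate, which shares part of the genotype contrast, both were lost (edgeR adjusted p = 0.136 for Ldha and 0.201 for Got1). The other 4 that fell, named after their values were seen, were the malate dehydrogenases Mdh1 and Mdh2, the mitochondrial aminotransferase Got2 and the oxoglutarate carrier Slc25a11.

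Genes listed as forming NADPH were mostly not called. Of 11, Mthfd2, a mitochondrial folate enzyme, was the 1 that fell (19.96 ± 2.44 CPM in mutants and 24.54 ± 1.16 CPM in WT, -0.30 ± 0.08, adjusted p = 0.0223), and none rose by edgeR, DESeq2 or limma-voom, with 0 at an unadjusted p under 0.05 upward. The call of Mthfd2 was lost without mutant replicate 1 or 3 or WT replicate 1 or 4 (adjusted p from 0.0512 to 0.0749) and with library totals (-0.24, adjusted p = 0.0501). It was -0.29 within the 3 libraries with Scgb3a2 under 10 CPM (adjusted p = 0.235). No gene of breakdown, repair and transhydrogenation was called by edgeR or limma-voom among 6 tested; DESeq2 called 1 lower, and 1 in each direction had an unadjusted p under 0.05.

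Another 6 genes reported elsewhere as partners or regulators of Nmrk2 were also read. Ppara, the fatty acid receptor reported to act on Nmrk2, had 28.95, 25.12, 23.26 and 24.51 CPM in mutants, against 34.27, 31.91, 34.77 and 35.66 CPM in WT. Its genotypes did not overlap (-0.42 ± 0.07, adjusted p = 0.000647), and the difference was -0.24 within the 3 libraries with Scgb3a2 under 10 CPM, 1 of them WT (adjusted p = 0.22). The AMP-activated kinase subunits Prkaa1 and Prkaa2, the serum response factor Srf and the integrin subunits Itga7 and Itgb1 were not called, with log2 fold changes from -0.09 (Srf) to 0.09 (Prkaa1).

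**Figure D5:**
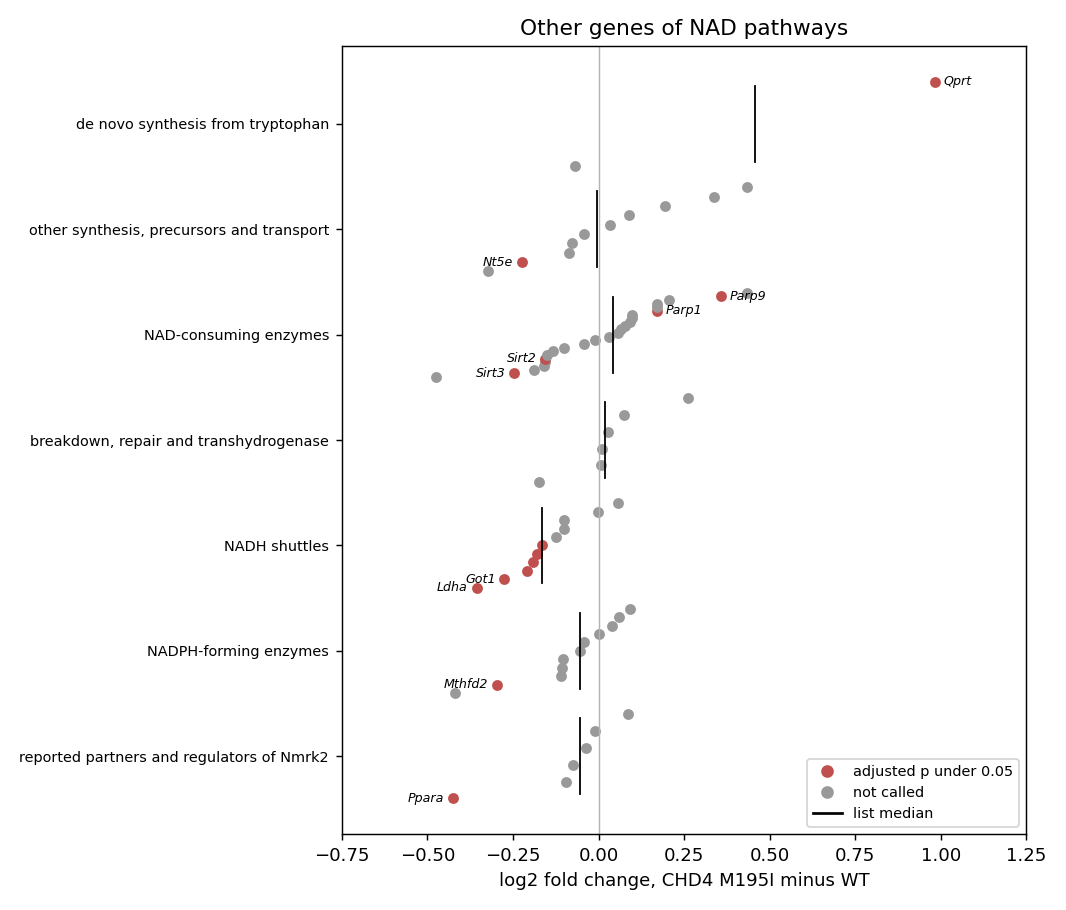
Log2 fold change, CHD4 M195I minus WT (horizontal axis), of the 70 tested genes in 7 lists of NAD pathways, with 1 point per gene, red for an adjusted p under 0.05, and a line at each list's median. The NADH shuttle list has its median at -0.17 with 6 genes called lower, and Qprt stands apart at 0.98.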

How the data were processed

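The authors deposited whole-number read counts of each gene, by library and again as a joint table, and the values of both were equal. The submitters' processing notes name Trimmomatic 0.36, STAR 2.5.2b, featureCounts, Subread 1.5.2 and GRCm38; column headers begin with "Male", per the file headers. No source used here states the annotation release or strand setting. Symbols came from GENCODE M21.

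Genes were kept by filterByExpr (minimum count 10), scaled by TMM and compared with the robust quasi-likelihood test of edgeR 4.0.16 in R 4.3.3 without covariates, with Benjamini-Hochberg adjustment over 16372 genes. The test was checked on simulated counts. Alternatives were DESeq2 1.42.0, limma-voom (limma 3.58.1), other scalings, filters and thresholds, each library left out, a replicate block, Xist or a lung epithelium score as covariates, and libraries split by Scgb3a2 at 10 CPM. No pair of libraries in a genotype agreed within sampling noise (chi-square per degree of freedom from 2.72 to 8.52). Intervals cover the fitted spread between libraries.

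Members and lists were chosen with earlier results of these data known. Named genes were the members, up to 2 called genes per list and direction by adjusted p, and the 5 nearest profiles. Pnp had no row under its symbol and protein sequences were not used here.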

Additional observations from a re-analysis of the deposited data

Results flagged for a closer look

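In groups of 4 libraries, 38 were checked for a library standing apart by Dixon's ratio, the gap to the nearest library over the whole range, against its 95% critical value. Chance passes it in about 1 of 20 groups, and 3 passed. WT replicate 2 was the highest of its group for Nmrk2, at 66.18 CPM (ratio 0.836). Mutant replicate 1 was the lowest of its group for Qprt, at 1.69 CPM (0.835). For Sirt2, mutant replicate 3 was the lowest, at 59 CPM (0.864).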

How the results depend on the processing

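Nmrk2, chosen for its fall in these libraries, was at -1.78 in libraries with Scgb3a2 under 10 CPM, 1 of them WT, and from -1.54 to -1.36 with each library left out; these values are no independent support. Genes called higher, 942 in the reported analysis, numbered 1856 with library totals, 109 with Xist as a covariate, 609 and 595 in libraries with Scgb3a2 of at least and under 10 CPM, and 392 at an adjusted p under 0.01. Genes called lower, 1226 as reported, numbered 141 with Xist, 812 with Scgb3a2 under 10 CPM and 644 at 0.01. With each library left out, 579 to 850 were called higher and 899 to 1137 lower. Members other than Nmrk2 called lower, 1 as reported, numbered 0 with Xist, 0 at 0.01 and 0 to 1 with each library left out. Pathway genes called lower, 11 as reported, numbered 6 with library totals, 0 with Xist, 6 at 0.01 and 7 to 11 with each library left out. Pathway genes called higher, 3 as reported, numbered 6 with library totals, 5 without a filter, 0 with Xist, 5 and 1 with Scgb3a2 of at least and under 10 CPM, and 3 to 6 with each library left out. Uncalled differences changed sign for Nmrk1 with Xist (-0.15), for Nmnat1 with Scgb3a2 of at least 10 CPM (0.045), and for Naprt there (-0.017) and without mutant replicate 1 or 3, within a range of -0.024 to 0.14 with each library left out. The stricter threshold calls fewer genes by construction. Mean Xist was higher in mutants, so a fit with it shares part of the genotype contrast. Otherwise the cause was not tested.

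The labels give no litter, so replicate numbers were not taken to pair libraries. Same-numbered libraries correlated from -0.482 to 0.771 in their deviations from the genotype means. Mutant replicates 1 and 2 correlated positively only with WT replicate 2 (0.624 and 0.771). These are the libraries with Scgb3a2 under 10 CPM, so the correlations cannot decide on pairing. With a replicate block 1023 genes were called higher and 1432 lower, Nmrk2 was at -1.48, and the call of Nt5e was lost (adjusted p = 0.0517). Low counts limit Nmrk1 and Nnmt.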
